A study of Mus musculus with 8 samples.

Results

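Mitochondrial fusion and fission genes were examined in whole liver of mice with diet-induced steatohepatitis. The 10 genes were chosen by name, as rows of the deposited count table whose NCBI gene numbers carry the mouse symbols Mfn1, Mfn2, Opa1, Oma1, Dnm1l, Fis1, Mff, Mief1, Mief2 and Immt. They are 10 of 40838 rows, all 10 were found, and all 10 were among the 17438 genes with enough counts to be tested. C57BL/6 mice received a diet that causes nonalcoholic steatohepatitis (NASH), that is, fatty liver with inflammation and scarring, for 16 weeks. After 7 weeks they were injected with an adeno-associated virus (AAV), and 9 weeks of diet followed. In the Lpcat3 group (4 libraries) the virus carried Lpcat3, which encodes an enzyme that places polyunsaturated fatty acids in membrane phospholipids. In the control group (4 libraries) it carried enhanced green fluorescent protein (eGFP). Both transgenes stood under TBG, a promoter active in hepatocytes, so other liver cells were not the intended target. Every animal had the diet and a virus, and no library here comes from a liver without either. The sources used here give neither age nor sex, and do not state that each library is a separate animal. The p-values below therefore refer to the spread between libraries, part of which may be technical.

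Mitochondria constantly join and divide. Mitofusins Mfn1 and Mfn2, large GTPases of the outer membrane, tether and fuse neighbouring organelles, and Opa1 fuses the inner membranes and keeps the cristae tight. Oma1 is a stress-activated protease that cleaves Opa1 and so restrains fusion. Division is carried out by the cytosolic GTPase Drp1, the product of Dnm1l, which is brought to the outer membrane by the adaptors Mff, Mief1 (MiD51), Mief2 (MiD49) and, with a less settled role, Fis1. Immt encodes mitofilin (MIC60), the core of the MICOS complex that holds crista junctions in place. In hepatocytes both directions are known to bear on lipid oxidation and on survival under fat load, and much of the control of these proteins is exerted after transcription.

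The promoters of 4 of these genes are shown to give the regulatory context of the RNA levels that follow. Mfn1 is shown as the gene with the smallest p-value among the 10, Mief1 as the one with the widest group difference, Opa1 as the inner membrane GTPase, and Fis1 as a gene with little variation. Each window runs from 250 bases before to 50 after an annotated start, 300 bases in all, 5′ to 3′, from RefSeq on build GRCm38.p6. That is not the authors' build (GRCm39). For Fis1 the more upstream of the annotated windows is printed. Capitals mark matches on either strand to the ETS core CCGGAAG, the NRF1 core GCATGCG, the estrogen-related receptor (ERR) motif AAGGTCA, the E-box CACGTG or the CCAAT box.
Mfn1, chr3:32529232-32529531, plus strand: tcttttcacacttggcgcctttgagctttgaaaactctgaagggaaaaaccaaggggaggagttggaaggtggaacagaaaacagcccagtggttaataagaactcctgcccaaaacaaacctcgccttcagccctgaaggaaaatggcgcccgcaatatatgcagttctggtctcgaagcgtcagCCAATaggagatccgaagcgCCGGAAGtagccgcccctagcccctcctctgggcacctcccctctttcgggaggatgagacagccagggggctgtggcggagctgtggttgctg
Opa1, chr16:29579084-29579383, plus strand: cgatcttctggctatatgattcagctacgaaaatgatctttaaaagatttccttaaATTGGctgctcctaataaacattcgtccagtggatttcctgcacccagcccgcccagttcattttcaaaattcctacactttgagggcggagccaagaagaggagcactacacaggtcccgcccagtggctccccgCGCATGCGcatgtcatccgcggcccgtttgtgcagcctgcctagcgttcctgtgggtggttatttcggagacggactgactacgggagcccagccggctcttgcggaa
Mief1, chr15:80233830-80234129, plus strand: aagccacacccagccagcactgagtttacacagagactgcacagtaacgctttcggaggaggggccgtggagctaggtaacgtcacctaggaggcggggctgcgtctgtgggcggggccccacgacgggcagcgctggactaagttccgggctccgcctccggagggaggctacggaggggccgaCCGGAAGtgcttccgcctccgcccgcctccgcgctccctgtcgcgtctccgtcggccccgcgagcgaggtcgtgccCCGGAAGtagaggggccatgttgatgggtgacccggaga
Fis1, chr5:136953025-136953324, plus strand: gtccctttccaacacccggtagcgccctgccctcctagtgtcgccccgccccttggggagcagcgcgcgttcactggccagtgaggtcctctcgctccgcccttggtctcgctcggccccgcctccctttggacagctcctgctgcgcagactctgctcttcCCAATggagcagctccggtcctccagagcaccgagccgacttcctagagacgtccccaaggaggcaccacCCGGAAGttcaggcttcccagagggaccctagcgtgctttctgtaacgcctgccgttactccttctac

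The 10 genes have 15 such windows in the RefSeq table. The ETS core occurred in 6 of the 15 windows, in Mfn1, Mief1, Dnm1l, Fis1 and Immt, where 8.86% of all 32817 windows hold it. Mief1 held it on both sides of the start, at positions -65 and 12, as did Immt, at -119 and 28. The NRF1 core, the site of a factor known to drive nuclear genes for mitochondria, occurred in Opa1 alone, as an overlapping match on both strands at positions -58 and -57, against 3.57% of all windows. A CCAAT box was present in 7 windows (37.4% of all windows), an E-box in 1, that of Mief2 (7.15%), and the ERR motif in 0 (4.72%). No other matches overlapped each other. These are matches of letters, and whether any factor binds there was not measured.

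In the RNA data, no fusion or fission gene passed the test between the groups. Small differences mostly pointed one way, with 9 of 10 genes higher in the Lpcat3 group on average, by at most 0.21 on the log2 scale, and Oma1 lower. Levels are given in CPM, read counts scaled to one common library size with TMM correction for composition, as mean ± SD over 4 libraries. The test was edgeR's quasi-likelihood test with Benjamini-Hochberg adjustment over all 17438 genes, called at 0.05. It called 0 of the 10 genes, where 0.00573% of all genes (1 gene, not one of the 10) were called, and DESeq2 and limma-voom also called 0 of the 10 (0.275% and 0.00573% of all genes). At an unadjusted p under 0.05, 1 of the 10 stood out in edgeR, Mfn1, against 8.48% of all genes, and again 1 in DESeq2 (8.58% of all genes) and 1 in limma-voom (9.08%), Mfn1 in both. For 0 of the 10 were the groups without overlap, against 4.15% of all genes. The median log2 fold change was 0.12 over the 10 genes, with a range of -0.04 to 0.21, and -0.0065 over all genes tested, of which 48.5% were higher. The count of 9 and the median depend on scaling and on the codes in the library titles, whose meaning is not stated. With the code number as a covariate, each code as its own level, 6 of 10 were higher and the median was 0.028. Only codes 1290 and 1345 hold libraries of both groups. The difference in that fit therefore rests on Lpcat3 replicates 1 and 4 and eGFP replicates 1, 2 and 4. With library totals in place of TMM the median of all genes moved to -0.13 and 5 of the 10 genes were higher, although 9 of 10 lay above the median of all genes under either scaling.

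**Figure D1:**
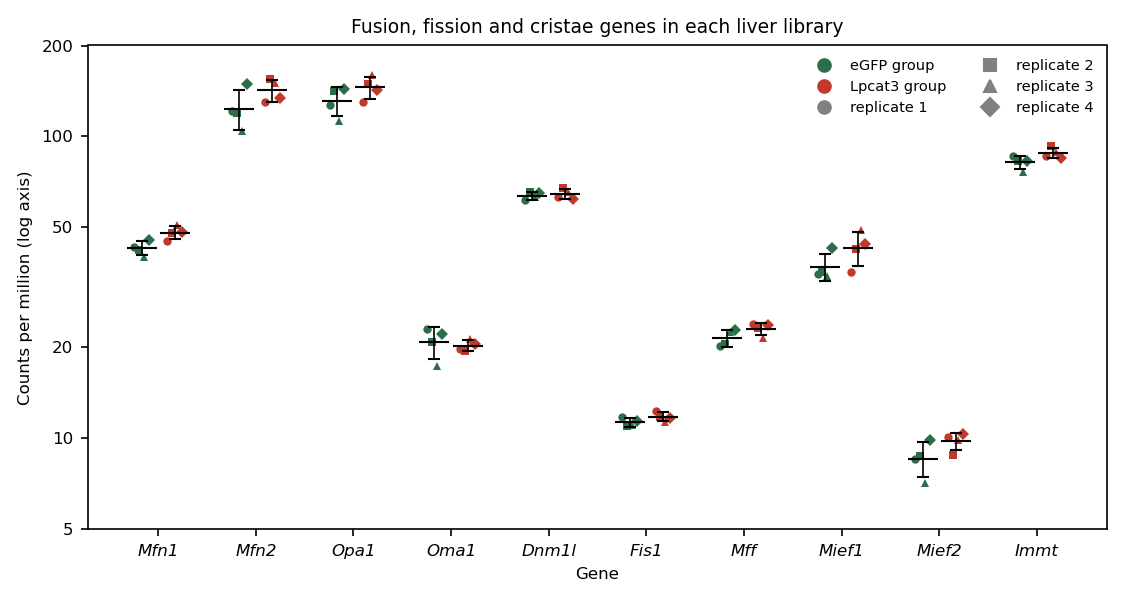
Level of each gene in each liver library, in CPM on a log axis. Green symbols are eGFP libraries and red symbols Lpcat3 libraries, shapes mark the replicate number, and black bars give the mean and SD of 4 libraries. The groups overlap for all 10 genes, and the Dnm1l and Fis1 libraries lie close together.

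The transgene served as the check of the labels. Lpcat3 was at 274, 401, 465 and 311 CPM in Lpcat3 replicates 1 to 4 and at 158, 148, 132 and 173 CPM in eGFP replicates 1 to 4. Every library labelled Lpcat3 lay above every one labelled eGFP, with a mean 2.37 times as high (log2 fold change 1.25, SE 0.17; edgeR adjusted p = 0.164). Library totals ran from 22433625 to 25651874 counts. The lowest library count behind a value of the 10 genes was 191, for Mief2, and the highest 3617, for Mfn2. Alb and the other hepatocyte markers were abundant in all libraries, with a summed level of 60324 to 98034 CPM over 10 genes.

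Among the fusion GTPases, Mfn1 was at 45.0, 47.7, 50.9 and 48.3 CPM in the Lpcat3 libraries and at 43.1, 42.1, 40.0 and 45.4 CPM in the eGFP libraries. The groups overlapped at one point only, since eGFP replicate 4 lay just above Lpcat3 replicate 1. Means were 48.0 ± 2.42 and 42.6 ± 2.25 CPM (SD, n = 4 each). The log2 difference was 0.17 (SE 0.06), and edgeR's p of 0.0264 became an adjusted p of 0.576. The interval of that difference, 0.02 to 0.31 at 95% without adjustment for the number of genes, was the only one of the 10 that left out 0. Without eGFP replicate 4 the adjusted p of Mfn1 was 0.298, the lowest of its 20 alternatives, which reached 1.0 at most.

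Mfn2, the mitofusin that also links mitochondria to the endoplasmic reticulum, was at 129.9, 154, 149.9 and 134 CPM in the Lpcat3 libraries. In the eGFP libraries it was at 122, 119, 104 and 149 CPM. Its eGFP replicates 1 to 3 were below all Lpcat3 libraries, whereas eGFP replicate 4 stood among them. The means of 142 ± 11.8 and 124 ± 18.8 CPM differed by 0.20 on the log2 scale (SE 0.11; edgeR adjusted p = 0.631), with an interval of -0.05 to 0.45. Over the 8 libraries Mfn2 spanned 0.57 on the log2 scale, the widest range of the 10 genes.

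Opa1 was at 130.3, 149, 159.9 and 142 CPM with Lpcat3 and at 127, 142, 113 and 144 CPM with eGFP. The low value of eGFP replicate 3 and the high value of Lpcat3 replicate 3 stood at the ends, and the other 6 libraries overlapped. Its log2 fold change was 0.14 (SE 0.10; edgeR adjusted p = 0.666). The protease gene Oma1 was at 19.8, 19.4, 21.3 and 20.5 CPM with Lpcat3 and at 22.9, 20.8, 17.4 and 22.2 CPM with eGFP. All 4 Lpcat3 libraries lay inside the range of the eGFP libraries, at a log2 fold change of -0.04 (interval -0.25 to 0.17; edgeR adjusted p = 0.901), and the sign turned to 0.012 without eGFP replicate 1.

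On the fission side, Dnm1l gave the narrowest interval of the 10 genes. It was at 63.0, 67.5, 65.3 and 61.8 CPM in the Lpcat3 libraries and at 61.4, 65.3, 62.8 and 65.1 CPM in the eGFP libraries, with the groups fully interleaved. The coefficient of variation was 3.91% and 2.97%, near the 2.60% and 2.49% that counting alone gives. The log2 difference, 0.02 (SE 0.06; edgeR adjusted p = 0.934), had an interval from 0.927 to 1.10 as a ratio of the groups. Fis1 was at 12.3, 11.8, 11.4 and 11.6 CPM with Lpcat3 and at 11.8, 10.9, 11.1 and 11.4 CPM with eGFP. Its libraries varied by 3.51% and 3.28%, under the counting error of 6.07% and 5.92%, so spread between libraries beyond counting was not detectable at this depth. The interval for Fis1 ran from 0.929 to 1.17 as a ratio (edgeR adjusted p = 0.805). Dnm1l turned to -0.10 and Fis1 to -0.058 (log2 fold change) with library totals, both above the median of all genes under that scaling.

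Among the Drp1 adaptors, Mff was at 23.9, 23.2, 21.6 and 23.7 CPM with Lpcat3 and at 20.1, 20.5, 22.5 and 22.9 CPM with eGFP. Lpcat3 replicate 3 fell among the eGFP libraries here, whereas it was the highest of all libraries for Mfn1, Opa1 and Mief1. The log2 fold change of Mff was 0.10 (SE 0.07; edgeR adjusted p = 0.669), and it was -0.013 with library totals. Mief1 was at 35.5, 42.3, 49.0 and 44.1 CPM with Lpcat3 and at 34.9, 35.6, 34.6 and 42.7 CPM with eGFP. Lpcat3 replicate 1 had an eGFP-like level, and eGFP replicate 4 a level like that of the other Lpcat3 libraries. The log2 difference of Mief1, 0.21 (SE 0.11; edgeR adjusted p = 0.62), was the highest of the 10, with an interval of -0.03 to 0.45. It was 0.14 without Lpcat3 replicate 3, 0.087 with library totals, and 0.024 or 0.048 in fits that include the title codes by number or by division. Mief2 was at 10.1, 8.83, 9.87 and 10.3 CPM with Lpcat3 and at 8.56, 8.73, 7.08 and 9.86 CPM with eGFP (log2 fold change 0.19, SE 0.11; edgeR adjusted p = 0.648). Its eGFP replicate 3 was the lowest of all libraries, and eGFP replicate 4 stood above Lpcat3 replicate 2.

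Immt, which shapes cristae rather than the outline of the organelle, was at 86.2, 92.9, 88.8 and 85.0 CPM with Lpcat3 and at 85.9, 82.7, 76.2 and 83.1 CPM with eGFP. The lowest Lpcat3 library was under the highest eGFP library by less than 1 CPM, so the groups overlapped at a single point. The means of 88.2 ± 3.51 and 82.0 ± 4.10 CPM differed by 0.11 on the log2 scale (SE 0.06; edgeR adjusted p = 0.645). With library totals it was -0.015.

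**Figure D2:**
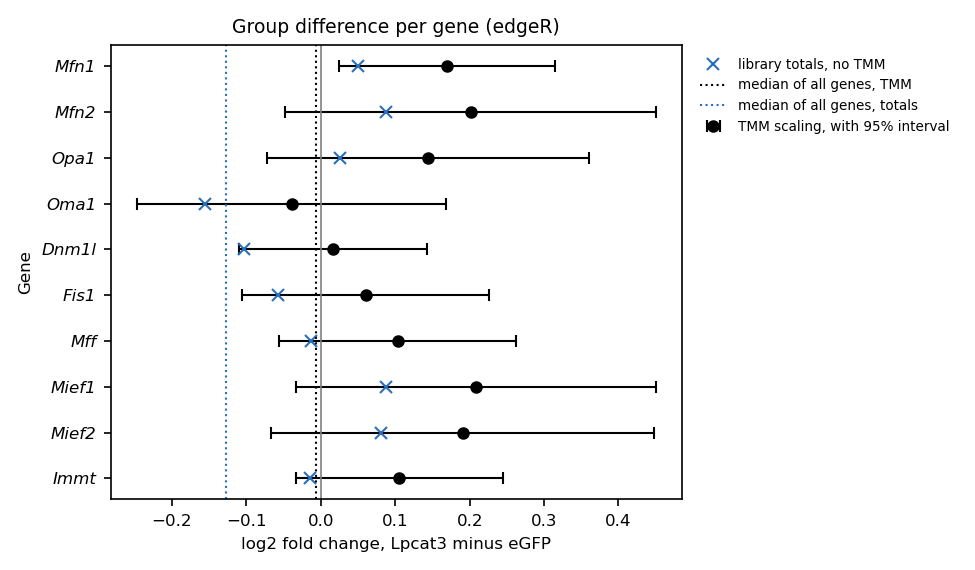
Group difference of each gene on the log2 scale, Lpcat3 minus eGFP, with the 95% interval from edgeR under TMM scaling (black) and the value with library totals (blue crosses). Dotted lines give the median of all 17438 genes under each scaling, -0.0065 and -0.13, and every black interval but that of Mfn1 spans 0.

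Reads from overlapping genes could enter some of these values, since the sources used here do not give the counting program or its use of strand. The RefSeq spans overlap Gnb4 for Mfn1, with 1612 counts in all libraries against 8715 for Mfn1, and C430014B12Rik for Mff, with 115 counts against 4304. The other overlapping genes in the table, next to Oma1 and Mief2, had 0 and 2 counts. An overlap with Mfn1 is therefore the one that could matter most for a value described here, and its part in the result was not tested.

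Levels of different genes can be compared only per length, and CPM was divided for this by the longest principal transcript of each gene in GENCODE M21. On this scale Immt was the most abundant of the 10, at 31.2 ± 1.78 CPM per kb (SD over all 8 libraries), followed by Mfn2 at 30.6 ± 4.05 and Opa1 at 22.2 ± 2.33 CPM per kb. Immt and Mfn2 changed places between libraries, with Immt above in 5 of 8, whereas Opa1 was below Mfn2 in all 8 although their ranges overlapped. Dnm1l followed at 16.1 ± 0.53, below every Opa1 library, with Fis1 overlapping it at 14.7 ± 0.567 CPM per kb. Mff, Oma1 and Mfn1, at 11.8 ± 0.748, 10.7 ± 0.902 and 9.93 ± 0.784 CPM per kb, formed a group with overlapping ranges below Fis1. Mief1 was at 7.74 ± 1.05 CPM per kb, overlapping Mfn1, and Mief2 was lowest at 3.63 ± 0.426 CPM per kb, apart from all others. Mfn2 transcripts thus outnumbered those of Mfn1, with a Mfn1 to Mfn2 ratio between 0.289 and 0.365 in every library. Among the adaptors the order was Fis1, Mff, Mief1, Mief2. The order depends on the length taken: with the union of all annotated exons, which is 11353 bases for Immt in place of 2728, Immt moved from rank 1 to rank 5, below Mfn2, Opa1, Dnm1l and Oma1, and Mff was last, below Mief2.

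The balance of the opposing machineries was described in each library by summing CPM per kb over Mfn1, Mfn2 and Opa1 and over Dnm1l, Fis1, Mff, Mief1 and Mief2. No test was made on these sums, because they are scores over the chosen genes. The sums use the principal transcript length only, and like the order of the genes, their size and ratio depend on the length taken. The fusion sum was 60.7, 69.9, 71.4 and 64.4 CPM per kb in the Lpcat3 libraries and 57.9, 59.5, 50.8 and 67.4 CPM per kb in the eGFP libraries. The fission sum was 55.1, 56.0, 55.7 and 55.6 CPM per kb with Lpcat3 and 51.3, 51.6, 51.3 and 55.2 CPM per kb with eGFP. The fission sum varied little except for eGFP replicate 4, which stood with the Lpcat3 libraries, so the groups overlapped for both sums. The fusion to fission ratio was 1.10, 1.25, 1.28 and 1.16 with Lpcat3 and 1.13, 1.15, 0.989 and 1.22 with eGFP, with SDs of 0.0819 and 0.0975 and means that differed by less than either SD. The Opa1 to Oma1 ratio, the inner membrane GTPase over its protease, ran from 2.03 to 2.35 with Lpcat3 and from 1.71 to 2.09 with eGFP, again with overlap.

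**Figure D3:**
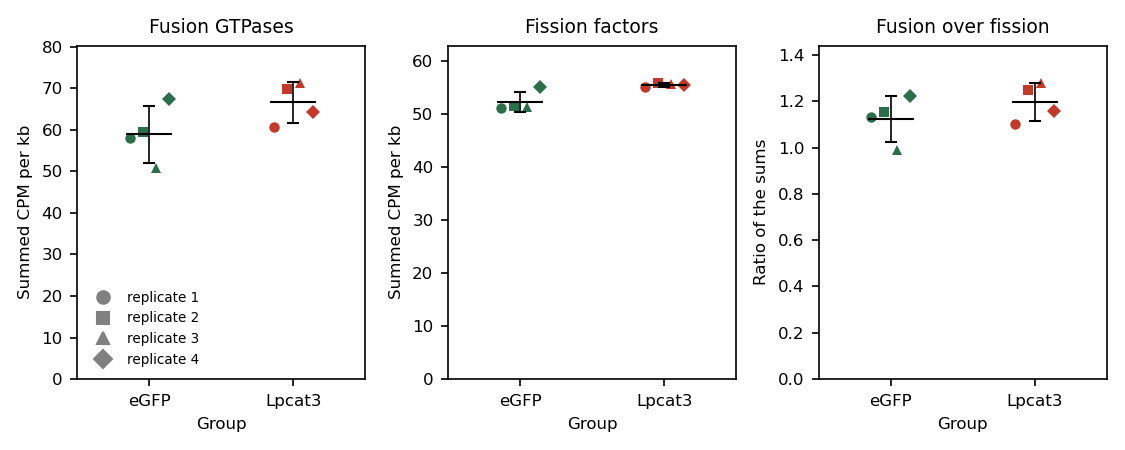
Summed level of the fusion GTPases, of the fission factors (both in CPM per kb of transcript) and the ratio of these sums, per library, by group. Symbols are single libraries, black bars are the mean and SD of 4, and axes start at 0. In each panel the groups overlap, with eGFP replicate 4 among the Lpcat3 libraries.

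Differences between single libraries of a group were as large as those between groups. Relative to each gene's own mean over the 8 libraries, the 10 genes averaged -0.056, -0.059, -0.18 and 0.061 (log2) in eGFP replicates 1 to 4, and 0.0029, 0.069, 0.11 and 0.056 in Lpcat3 replicates 1 to 4. In eGFP replicate 3 only 1 of the 10 genes, Mff, was above its own mean, and in eGFP replicate 4 it was 8 of 10. Lpcat3 replicate 1 had 4 of 10 above their mean, the other Lpcat3 libraries 8 or 9. Without eGFP replicate 3 the median log2 fold change of the 10 genes was 0.092, and 0.085 without both libraries numbered 3. Those 2 libraries are also the extremes of the first principal component of all genes, at -46.1 and 51.0, which held 40.9% of the variance. The title codes were pooled here, 1290 with 1317 and 1344 with 1345, a division that the labels do not state. It divides the groups unevenly: 1290 and 1317 hold 1 Lpcat3 and 3 eGFP libraries, 1344 and 1345 hold 3 and 1. Within codes 1290 and 1317, 8 of the 10 genes were higher with Lpcat3, and within 1344 and 1345 it was 5 of 10. Mfn1 had a log2 difference of 0.11 in each, against 0.17 over all libraries, and Mief1 0.018 and 0.075, against 0.21. Immt had 0.080 and 0.096 and Opa1 0.042 and 0.059, while Mfn2 had 0.18 and -0.032 and Mief2 0.31 and -0.032. In a fit that also holds this division, 8 of 10 were higher, with a median of 0.075 and Mfn2 at 0.072.

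Leaving out 1 library moved several of these differences by over 1.5 times. Without eGFP replicate 3 the log2 difference was 0.13 for Mfn2, 0.11 for Mief2 and 0.076 for Opa1. Without Lpcat3 replicate 3 it was 0.095 for Opa1, and without Lpcat3 replicate 1 it was 0.037 for Fis1. Without eGFP replicate 4 that of Mfn2 was 0.31, and 4 of the 10 genes (Mfn1, Mfn2, Mief1 and Mief2) had an unadjusted p under 0.05, against 14.5% of all genes, with 0 called by edgeR after adjustment.

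**Figure D4:**
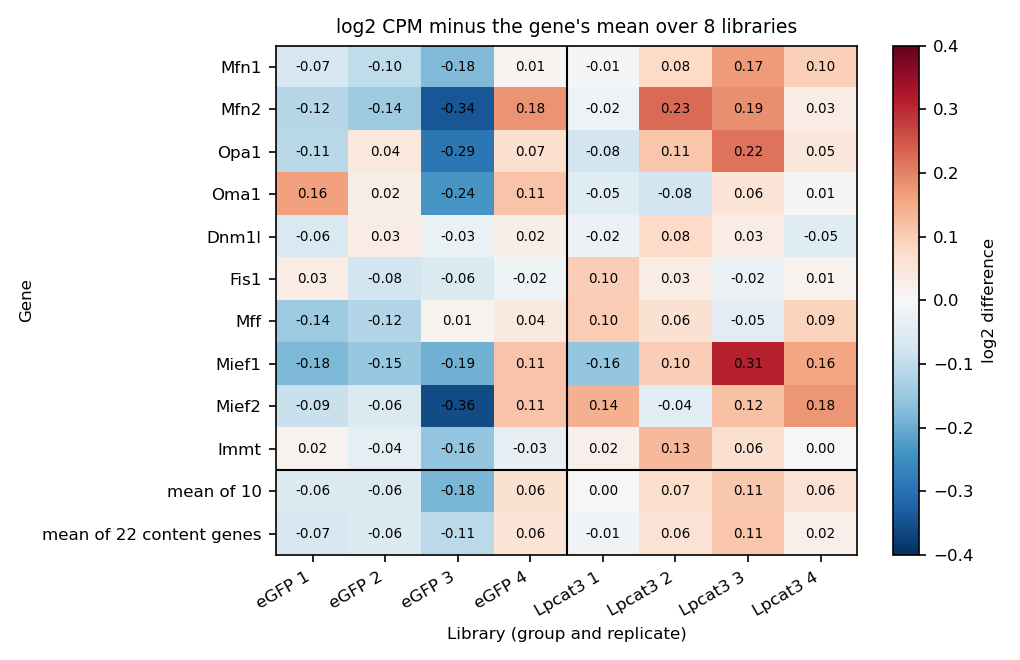
Deviation of each gene's log2 CPM from its own mean over the 8 libraries (columns, eGFP on the left and Lpcat3 on the right), with the mean of the 10 genes and of 22 mitochondrial content genes below the line. eGFP replicate 3 is lowest, at -0.18 for the 10 genes, and eGFP replicate 4, at 0.061, has the sign of the Lpcat3 libraries.

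Other genes of mitochondrial shape and content did not pass the test either, with log2 differences from -0.46 (Armcx3) to 0.45 (Mtfp1). Over 6 lists of 72 other genes, 70 were tested, and 0 were called by edgeR, DESeq2 or limma-voom. An unadjusted p under 0.05 was found for 4 of the 70 in edgeR, against 8.48% of all genes. It was found for 5 in DESeq2 (8.58% of all genes) and for 7 in limma-voom (9.08%). For 3 of the 70 the groups did not overlap, against 4.15% of all genes. Of the 70, 56 were higher in the Lpcat3 group and 14 lower, with a median log2 fold change of 0.089 against 0.12 for the 10 genes. Over all genes tested, 48.5% were higher. These counts, and those of the single lists below, hold for TMM scaling only. With library totals the median of all genes moved from -0.0065 to -0.13, and the directions in the lists were not counted under that scaling. For 22 genes of mitochondrial content, such as citrate synthase, porins, import receptors and respiratory subunits, 20 were higher (median 0.091). Their mean deviation by library had the same order as that of the 10 genes, except that eGFP replicates 1 and 2 changed places, at -0.067, -0.056, -0.11 and 0.056 in the eGFP libraries and -0.014, 0.057, 0.11 and 0.022 in the Lpcat3 libraries. Tomm40, the channel of the outer membrane import machine, was at 26.3 ± 2.72 against 21.7 ± 2.42 CPM, Timm44, of the inner membrane import motor, at 23.9 ± 2.38 against 21.4 ± 0.634 CPM, and Uqcrc2 of complex III at 86.6 ± 2.29 against 80.1 ± 2.75 CPM (edgeR adjusted p = 0.57, 0.611 and 0.611).

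Further fission factors were higher in 11 of the 15 tested (Mtfr2 and Gdap1 had too few counts), with a median log2 fold change of 0.11. Mtfp1, an inner membrane protein that promotes division, was at 6.19, 5.38, 6.51 and 5.92 CPM with Lpcat3 and at 4.12, 4.98, 3.41 and 5.12 CPM with eGFP, without overlap. It had the largest upward difference of the 6 lists, 0.45 on the log2 scale (SE 0.15; edgeR adjusted p = 0.564), and did not pass. Mtfr1, named for its role in mitochondrial fission, was at 95.4 ± 8.62 against 81.3 ± 6.18 CPM, and Stx17, a syntaxin that also acts in autophagy, at 39.5 ± 2.71 against 34.1 ± 5.19 CPM (edgeR adjusted p = 0.569 and 0.614). Other fusion factors were higher in 5 of 7 (median 0.043). Among them Fam210b was at 98.3 ± 9.55 against 85.5 ± 9.47 CPM, Miga2, an outer membrane fusion factor, at 52.3 ± 5.35 against 44.7 ± 11.6 CPM and Msto1 at 3.85 ± 0.602 against 4.25 ± 0.424 CPM (edgeR adjusted p from 0.606 to 0.765).

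Genes of Opa1 processing and inner membrane proteostasis were higher in 7 of 8 (median log2 fold change 0.12). Afg3l2, a subunit of the matrix-facing AAA protease, was at 56.5, 63.7, 61.7 and 58.7 CPM with Lpcat3 and at 50.5, 54.1, 54.8 and 56.3 CPM with eGFP, groups that did not overlap (log2 fold change 0.16, SE 0.06; edgeR adjusted p = 0.579). The scaffold genes Stoml2 and Phb2 were at 20.6 ± 1.08 against 18.4 ± 1.02 CPM and at 95.4 ± 9.34 against 83.8 ± 6.95 CPM (edgeR adjusted p = 0.591 and 0.6). Other MICOS and cristae genes, the partners of Immt, were higher in 9 of 11 by a median of 0.039. Mtx2 was at 26.3 ± 1.37 against 23.6 ± 2.96 CPM and the MICOS subunit Chchd3 at 54.3 ± 2.8 against 51.1 ± 2.87 CPM, while Chchd6, a further subunit, was at 1.44 ± 0.179 against 1.71 ± 0.295 CPM (edgeR adjusted p from 0.648 to 0.697). Genes that move mitochondria along the cytoskeleton were higher in 4 of 7 (median 0.026), with the GTPases Rhot1 and Rhot2 at 55.7 ± 2.29 against 51.4 ± 2.19 CPM and at 32.2 ± 1.07 against 28.8 ± 2.52 CPM and the adaptor Trak1 at 93.6 ± 6.67 against 80.5 ± 12.4 CPM (edgeR adjusted p from 0.601 to 0.617). Armcx3, an outer membrane protein of mitochondrial transport named here after its values were seen, was at 13.2, 10.2, 9.72 and 10.7 CPM with Lpcat3 and at 21.2, 17.2, 12.8 and 9.04 CPM with eGFP. The groups overlapped, since eGFP replicate 4 was the lowest of all libraries, and the log2 difference of -0.46 (SE 0.24; edgeR adjusted p = 0.621) was the largest of the 6 lists in size.

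In bulk liver, fewer cells of a type and less RNA per cell cannot be told apart. Marker sums therefore stand beside these results. None of the marker lists held a gene called by edgeR (lowest adjusted p = 0.564), and over all genes tested 48.5% were higher with Lpcat3. The 13 macrophage markers summed to 326 to 419 CPM in the Lpcat3 libraries and to 439.7 to 689 CPM in the eGFP libraries, without overlap. Of these, 12 of 13 were lower with Lpcat3. Taken singly, the groups were without overlap for 0 of the 13, against 4.15% of all genes. An unadjusted edgeR p under 0.05 was found for 7 of the 13, all lower, against 8.48% of all genes. The 9 endothelial markers were all lower on average (436 to 548 against 547 to 594 CPM). Such a p was found for 4 of the 9, and for 1, Cdh5, the groups did not overlap. It was found for 1 of 11 tested lymphocyte, 1 of 4 tested neutrophil and 1 of 11 stellate and fibroblast markers, all lower. With a higher level it was found for 1 of 10 hepatocyte and 2 of 6 cholangiocyte markers. Of 13 lymphocyte markers 10 were lower (31.9 to 51.7 against 44.9 to 95.2 CPM), as were 5 of 6 neutrophil markers (4.98 to 8.64 against 7.51 to 21.1 CPM) and 7 of 11 stellate and fibroblast markers (548 to 860.3 against 711 to 873 CPM). Most of the lymphocyte sum was Ptprc, on average 33.5 of 41.0 CPM with Lpcat3 and 58.6 of 68.3 CPM with eGFP. That sum therefore mainly follows 1 gene and is no measure of lymphocytes by itself. Other sums also follow few genes. Spp1 gave on average 71.3 of 86.9 CPM of the cholangiocyte sum with Lpcat3 and 54.8 of 67.9 CPM with eGFP. Csf3r gave 5.12 of 7.30 and 8.19 of 11.9 CPM of the neutrophil sum. Alb and Apob gave 41545 and 21509 of 77784 CPM of the hepatocyte sum with Lpcat3, and 38600.5 and 21878 of 73131 CPM with eGFP. Hepatocyte markers were higher in 9 of 10 and cholangiocyte markers in 5 of 6 (39.0 to 125 against 37.8 to 85.9 CPM), and 0 genes of these marker lists were at 0 in all libraries. In eGFP replicate 3, where the fusion and fission genes were lowest, the hepatocyte sum was also the lowest of the 8 libraries. The lymphocyte and neutrophil sums were highest there, with Ptprc giving 82.8 of the 95.2 CPM of the lymphocyte sum. The macrophage, endothelial, and stellate and fibroblast sums were instead highest in eGFP replicate 1. The part of cell composition in the small differences described here was not tested.

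Over the 8 libraries, the genes outside the lists whose pattern lay closest to the mean pattern of the 10 were Dcun1d1 and Psmb1, at a root mean square distance of 0.018 and 0.023 (log2) among 11775 candidates. Within the 10, Mfn1 lay closest to that mean pattern, at 0.037, and Mief1 farthest, at 0.11. Psmb1, a proteasome subunit, was at 83.3 ± 2.48 against 76.2 ± 6.41 CPM (edgeR adjusted p = 0.631). Dcun1d1, which promotes neddylation, was at 92.5 ± 3.23 against 86.4 ± 6.12 CPM (edgeR adjusted p = 0.667).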

How the data were processed

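Total liver RNA was depleted of ribosomal RNA and sequenced as stranded single-end libraries, per the labels' protocols. The authors deposited raw counts of reads per NCBI gene number, not normalized, in 40838 rows and 8 columns, which were joined to samples by the codes in the titles. The submitters' processing notes name bcl2fastq 2.20, DESeq2 and build GRCm39; for the aligner, counting program and strand setting, the sources used here name nothing. Symbols came from RefSeq GRCm38.p6, which matched 39397 rows holding 99.5% of the counts.

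Genes were filtered with filterByExpr (minimum count 10), which left 17438, and compared with edgeR 4.0.16 (R 4.3.3; TMM, robust quasi-likelihood, group as the only term, two-sided). The biological coefficient of variation was 16.9%. CPM used TMM-scaled totals, and log2 CPM a prior count of 2. Counting error is Poisson only. Alternatives used DESeq2 1.42.0 and limma 3.58.1, other scalings and filters, a replicate block, the title codes and left-out libraries. Libraries of a group differed by more than sampling noise (chi-square per degree of freedom 18.9 to 118).

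The members and lists were chosen with earlier results of these data known. Named were Lpcat3, the 10 members, the 3 genes of smallest p in each other mitochondrial list, and the 3 genes of nearest pattern at 1 CPM or more in every library, of which 1 is not reported here.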

Additional observations from a re-analysis of the deposited data

Results flagged for a closer look

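Of 54 groups of 4 libraries examined with Dixon's test at 95%, 2 held a library far from the others, where chance gives about 5% of groups. Mief1 in eGFP replicate 4, at 42.7 CPM, stood apart from the other eGFP libraries, at 34.6 to 35.6 CPM. The summed fission factors in the same library, at 55.2 CPM per kb, stood apart from the other eGFP libraries, at 51.3 to 51.6 CPM per kb. Mief1 is part of that sum, so the pair are not independent.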

How the results depend on the processing

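Over 20 alternatives, 0 of the 10 genes were called in any, and 9 of 10 were higher in the Lpcat3 group in 15 of them (8 of 10 without Lpcat3 replicate 2 and with the code division, 10 of 10 without eGFP replicate 1, 6 of 10 with the code number). With library totals 5 of 10 were higher and the median log2 fold change of the 10 was 0.0065; Dnm1l (-0.10), Fis1 (-0.058), Immt (-0.015) and Mff (-0.013) changed sign, as the median of all genes fell too. With the code number as a covariate, where only codes 1290 and 1345 hold both groups, the median was 0.028. Dnm1l (-0.036), Opa1 (-0.034) and Mfn2 (-0.0026) changed sign there, and the cause was not tested. Dnm1l was -0.0046 in the fit on the code division. Leaving out 1 library moved Dnm1l between -0.0062 (without Lpcat3 replicate 2) and 0.036, and Oma1 between -0.12 (without eGFP replicate 3) and 0.012 (without eGFP replicate 1). The count of all genes called, 1 in the main comparison, was 48 in DESeq2, 3 with library totals, 2 without robust estimation, and 0 with no filter, with the code number, with the code division or without both libraries numbered 3 (an alternative chosen after seeing the data). Leaving out 1 library gave 0 to 7 calls: 7 without Lpcat3 replicate 1, 2 without Lpcat3 replicate 2 and 0 without any of the other 6; the cause was not tested. Between libraries of the same replicate number the correlations of deviations were 0.28, -0.069, -0.40 and -0.12 for replicates 1 to 4. The replicate 1 libraries, both of code 1290, were each other's closest match in the opposite group. These correlations, from 4 libraries per group, cannot settle whether libraries were paired. With the replicate block 0 genes were called. Depth limits Fis1 and Mief2, whose counting error was 5.92% to 6.81%.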
